A study of Mus musculus with 2 samples.

Results

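The immediate early genes Fos, Fosb, Jun, Junb, Egr1, Atf3, Ier2, Dusp1, Zfp36 and Btg2 were followed one array probe at a time in RNA that came down with FLAG-tagged Nanos2 from the embryonic mouse testis. All non-control probes that the deposited series table assigns to these 10 genes were taken, 15 of the 41174 probes on the array. Junb, Ier2 and Zfp36 had 2 probes each and Btg2 had 3, while the other genes had 1 each. Both groups came from the strain MCH, from testes taken on embryonic day 14.5 and carrying one transgene, labelled Tg-Nanos2 enhancer-3xFLAG-Nanos2-3'UTR. RNA bound by an anti-FLAG M2 agarose antibody (FLAG IP) was hybridised to 2 arrays, and RNA of the starting tissue (input) to the other 2. The series text calls the duplicates biological. The transgene is driven by a Nanos2 enhancer, and the labels name neither the number of founder lines nor the number of gonads pooled per array. A precipitate from gonads without the transgene was not analysed here, so RNA that binds the beads without the tagged protein was not measured.

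Immediate early genes are transcribed within minutes of a stimulus, before any new protein is made, and their mRNAs are short-lived. Growth factor, stress and calcium signals reach them through MAP kinases and through factors such as SRF, its ternary complex partners and CREB that already sit on their promoters. Many of the products are transcription factors that switch on a later set of genes, and others, such as Dusp1 and Zfp36, shut the response down. Nanos2 is a germ cell RNA-binding protein that recruits a deadenylase complex to its bound mRNAs.

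The promoters of 3 members held a full cyclic AMP response element or serum response element, through which those signals act, and their 30-base windows are shown here. Promoter sequences, each 250 bases before to 50 bases after a gene start, were taken from RefSeq (GRCm38.p6), where 8 of the 10 genes matched. Egr1 and Ier2 had no such sequence and were not searched. Elements that lie outside these windows were not looked for in any gene. The letters TGACGTCA were searched on both strands and lay in 2 of the 8 promoters, against 1.79% of 32851 promoters in the table. The SRF CArG box was in 1 of 8, against 1.63% of all. In the windows that follow, 5′ to 3′ on the minus strand, capitals mark the element, whose first base lies at -143 (Dusp1, chr17:26508597-26508626), -166 (Btg2, chr1:134079303-134079332) and -58 (Zfp36, chr7:28379267-28379296) from the start.
Dusp1: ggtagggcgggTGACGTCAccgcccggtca
Btg2: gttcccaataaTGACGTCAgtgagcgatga
Zfp36: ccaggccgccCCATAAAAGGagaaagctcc
The same response element letters are present in Dusp1 and in Btg2, whose probes lay on opposite sides of the input in the values that follow. The AP-1 letters TGANTCA were in 0 of 8 windows against 7.81% of all promoters, TATAAA in 2 of 8 (Fos and Junb) against 13.6%, and GGGCGG in 7 of 8 (all but Junb) against 35.7%. The Zfp36 CArG box shares 1 base with a GGGCGG match on the other strand, and the other 2 printed elements overlap none of the searched motifs. A match of letters is a description of these windows and not a site shown to be used.

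The arrays set the precision of what follows. FLAG IP replicates 1 and 2 had a 75th percentile of 55.7 and 608 intensity units, against 1026 and 1038 for the input arrays, so that the FLAG IP arrays were 10.9-fold apart in brightness. Each array was scaled to its own 75th percentile, and values are given as a percent of it or as log2 of that ratio. The median SD between the 2 arrays of a group was 0.328 log2 units in the FLAG IP and 0.0653 in the input. Germ cell markers stood higher in the FLAG IP, with 7 of 13 tested probes higher, 1 lower and a median log2 fold change of 1.03. Without scaling that median was -1.46, where the median of all probes was -2.47. Nanos2 itself, counted among these markers, rose by 1.88 ± 0.21 (SE; adjusted p = 0.0079, limma). Nanos2 transcripts of the transgene and of the endogenous gene were not told apart. Markers of the somatic cells stood lower, with 0 probes higher in each list: 11 of 13 Sertoli cell, 8 of 8 Leydig cell, 13 of 15 interstitial, 4 of 7 endothelial, 4 of 6 macrophage and 9 of 9 red cell probes were lower. Under normexp, where the median of all probes was 0.60, the macrophage median turned to 0.32. The summed level of each somatic list on the 2 arrays of a group, in multiples of the 75th percentile, was 18.4 to 21.6 in the FLAG IP and 109.8 to 128 in the input for Sertoli cells. It was 24.4 to 24.9 in the FLAG IP and 150.1 to 167 in the input for Leydig cells, and 42.2 to 65.4 in the FLAG IP and 291 to 306 in the input for the interstitium. Endothelial sums were 3.12 to 4.46 in the FLAG IP and 8.88 to 9.86 in the input, macrophage sums 0.853 to 1.04 in the FLAG IP and 4.44 to 4.54 in the input, and red cell sums 100.1 to 106 in the FLAG IP and 683 to 772 in the input. The testis markers Amh (Sertoli cells) and Insl3 (Leydig cells) were well above background on all 4 arrays. Germ cell sums were 175 to 191 in the FLAG IP and 91.5 to 96.7 in the input. The part of these cell types in the members' folds was not tested. In the input, as in any bulk tissue, fewer cells of a type and less RNA per cell cannot be told apart.

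Of the 15 probes, all of which passed the filter on dim signals, 5 were higher in the FLAG IP than in the input, 3 were lower and 7 did not pass the test (limma, Benjamini-Hochberg over 26535 probes, threshold 0.05). The higher ones were those of Dusp1, Fos and Egr1 and both probes of Zfp36, and the lower ones were 1 probe each of Ier2, Junb and Btg2. Across all tested probes 23.2% were called higher and 22.5% lower, so the members' 5 and 3 of 15 were close to the background. The median log2 fold change was -0.43 over the 15 probes and 0.02 over all probes. The groups did not overlap for 14 of the 15 probes, Fosb being the exception, against 76.8% of all probes. With either input array left out limma called 0 probes, of the 15 or of the whole array, and 4 of the 15 were higher and 1 lower at an unadjusted p under 0.05. The smallest adjusted p among the 15 was then 0.099 without input replicate 1, which is also the comparison within one slide, and 0.0898 without input replicate 2. With either FLAG IP array left out, the spread came from the 2 input arrays alone and the lone FLAG IP array was assumed to vary like them, although the FLAG IP had the larger SD. The calls then numbered 10046 higher and 10847 lower over all probes, with 6 and 8 of the 15, without FLAG IP replicate 1. They numbered 11227 higher and 9687 lower, with 6 and 5 of the 15, without FLAG IP replicate 2. For this reason folds without a FLAG IP array are given in what follows as values, with no test. No call was made either under normexp background correction, without the filter on dim probes or without scaling, where the smallest adjusted p was 0.0605, 0.0500063 and 0.109.

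AP-1 is a dimer, in which Fos proteins bind DNA together with a Jun protein. Fos, printed as 10 spots per array, read 21.9% and 15% of the 75th percentile on FLAG IP replicates 1 and 2, against 3.81% and 3.99% in the input. Both FLAG IP arrays lay well above both input arrays. Fos rose by 2.22 ± 0.25 log2 units (SE, n = 2 arrays per group; 4.65-fold, adjusted p = 0.0084), more than 95.9% of tested probes.

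The Fos signals were dim, and the repeated spots show how far a single spot can stray. On FLAG IP replicate 1 the 10 spots ranged from -2.55 to -1.78 log2 units, and 7 of the 10 were well above background. The other arrays gave -2.97 to -2.60 on FLAG IP replicate 2, -5.02 to -4.25 on input replicate 1 and -4.79 to -4.52 on input replicate 2. No FLAG IP spot of Fos reached down to any input spot. Without scaling between arrays the Fos fold turned to -0.27, in a setting where the median of all probes fell by 2.47.

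Fosb, the paralogue whose spliced form is long-lived in neurons, did not pass the test. It read 5.16% and 2.97% in the FLAG IP, against 4.86% and 6.81% in the input, so that the groups overlapped. The fold was -0.55 ± 0.37 (adjusted p = 0.292), and FLAG IP replicate 1 was not well above background. The fold was -0.95 without that array and -0.16 without FLAG IP replicate 2, and normexp turned it to 1.08.

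Jun, the partner that can also pair with itself, lay slightly lower on both FLAG IP arrays without passing the test. It read 134% and 99.97% of the 75th percentile in the FLAG IP, against 158% and 155% in the input. Jun was also printed 10 times, and its spots on FLAG IP replicate 1 ran from -0.03 to 0.77 log2 units, a range that reached past the input spots, which ran from 0.53 to 0.76. The fold was -0.43 ± 0.22 (adjusted p = 0.19), the median of the 15 probes. It was -0.64 without FLAG IP replicate 1 and -0.22 without FLAG IP replicate 2.

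Junb, which dimerises with Fos proteins and is a weaker activator than Jun, was the gene whose probes went apart. Probe A_51_P159194 read 1159.9% and 279.7% in the FLAG IP, against 178% and 174% in the input. Probe A_51_P159201, assigned to the same RefSeq transcript, read 76.9% and 99.4% in the FLAG IP, against 178% and 160.2% in the input. On both FLAG IP arrays the first was above the input and the second below it.

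The second Junb probe passed the test at -0.95 ± 0.21 (adjusted p = 0.0321), and the first, at 1.69 ± 0.75, did not (adjusted p = 0.146). The FLAG IP arrays of the first had an SD of 1.45 log2 units. Array by array the first probe exceeded the second by 3.92 and 1.49 log2 units on FLAG IP replicates 1 and 2, and by 0.005 and 0.116 on input replicates 1 and 2. The difference between the folds was 2.64 ± 0.90 (adjusted p = 0.206 in limma, over 10556 pairs of probes of one gene). It was larger than 97.7% of those pairs' differences, whose median was 0.56. As the mean of both probes Junb stood at 0.37 ± 0.34 (adjusted p = 0.421). With 1 array left out the fold of the first probe ran from 0.67 (without FLAG IP replicate 1) to 2.72 (without FLAG IP replicate 2). The cause of the difference was not tested, and the files used here hold no probe sequences.

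Atf3, a bZIP factor of the stress response that mostly represses, did not pass the test. It read 23.5% and 21.1% in the FLAG IP, against 24.6% and 24.8% in the input. Both FLAG IP arrays lay just under the input, with a fold of -0.15 ± 0.17 (adjusted p = 0.511), and normexp turned it to 0.41.

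Egr1, the zinc finger factor that marks MAP kinase signalling, rose. It read 734% and 483% of the 75th percentile in the FLAG IP, against 232% and 229% in the input. Each FLAG IP array was above both input arrays, a rise of 1.37 ± 0.27 (2.58-fold, adjusted p = 0.0233). Without scaling its fold was -1.12, under the same shift of all probes.

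Ier2, a short-lived nuclear protein induced by serum, was the member furthest below the input. Its probe A_51_P481325 read 181% and 119% in the FLAG IP, against 595% and 578% in the input. That probe fell by 2.0 ± 0.27 log2 units (adjusted p = 0.0108), and only 7.76% of tested probes had a lower fold. The other probe, A_52_P554555, read 4.83% and 2.18% in the FLAG IP, against 9.16% and 10.3% in the input. Here too both FLAG IP arrays were under both input arrays, but the fold of -1.58 ± 0.45 did not pass (adjusted p = 0.0539). It passed with quantile normalization (-1.90, adjusted p = 0.00939) and with median centring (-1.70, adjusted p = 0.0371). On FLAG IP replicate 1 this probe had 2.69 intensity units, below the 8.19 of the faintest probe well above background there. That faintest probe stood at -2.77 log2 units, above both input values of A_52_P554555, -3.45 and -3.28. FLAG IP replicate 1 therefore could not measure a fall of A_52_P554555. The fold of A_52_P554555 was -2.15 without that array and -1.01 without FLAG IP replicate 2, and normexp turned it to 0.80. The probes of Ier2 differed in fold by -0.42 ± 0.30 (adjusted p = 0.473). As the mean of both probes, the dim one included, Ier2 was called lower at -1.79 ± 0.35 (adjusted p = 0.0223, limma).

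Btg2, an antiproliferative protein that binds the CCR4-NOT deadenylase and is induced by growth factors and p53, had 3 probes on the same side of the input. Probe A_52_P35217 read 3.45% and 4.42% in the FLAG IP, against 9.14% and 8.72% in the input. It was called lower at -1.19 ± 0.21 (adjusted p = 0.0173), but FLAG IP replicate 1 was not well above background for it. The faintest probe well above background on that array stood at -2.77 log2 units, above both input values of this probe, so that array could not measure a fall. Quantile normalization ended the call (-2.54 ± 1.18, adjusted p = 0.163). Normexp turned it to 0.91. Probe A_52_P31543 read 72.2% and 133% in the FLAG IP, against 170.0% and 164% in the input, and its fold was -0.77 ± 0.35 (adjusted p = 0.157). Probe A_52_P925197 read 26.3% and 16.1% in the FLAG IP, against 27.1% and 28.6% in the input, and its fold was -0.44 ± 0.30 (adjusted p = 0.307). For each probe both FLAG IP arrays were below both input arrays, but for the last of them FLAG IP replicate 1 lay within 0.041 log2 units of the input. The folds of A_52_P31543 and A_52_P925197 were -0.33 and -0.79 when FLAG IP replicate 1 was left out, and leaving out FLAG IP replicate 2 gave -1.21 and -0.08. Normexp turned A_52_P925197 to 0.49. Pairs of Btg2 probes differed in fold by at most 0.76 ± 0.44 in size, with adjusted p from 0.392 to 0.771.

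Dusp1, the phosphatase that inactivates p38, JNK and ERK in the nucleus, had the largest fold of the 15 probes. It read 1002% and 452% of the 75th percentile in the FLAG IP, against 60.2% and 60.4% in the input. Every FLAG IP array was several times above every input array, and the FLAG IP arrays were also apart from each other. Dusp1 rose by 3.48 ± 0.44 (11.2-fold, adjusted p = 0.0098), above 99.7% of tested probes. It stayed above 0 under every alternative tried, with folds from 0.99 without scaling to 4.06 without FLAG IP replicate 2.

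Zfp36, which encodes tristetraprolin, a protein that binds AU-rich elements and sends mRNAs to decay, rose on both of its probes. Probe A_51_P158538 read 132% and 124% in the FLAG IP, against 38.7% and 38.3% in the input. It had the closest FLAG IP replicates of the 15 probes, and it rose by 1.73 ± 0.16 (3.32-fold, adjusted p = 0.00691). The other probe, A_52_P80944, read 8.52% and 12.4% in the FLAG IP, against 1.66% and 2.52% in the input, and rose by 2.33 ± 0.33 (5.03-fold, adjusted p = 0.0118). All FLAG IP values exceeded all input values on both probes, but on FLAG IP replicate 1 the second was not well above background. Its input values were -5.92 and -5.31 log2 units. Btg4, not well above background on any array, read -4.38 on FLAG IP replicate 1. That array therefore could not tell a rise of the second probe from background. The fold of the second probe without that array was 2.60. The probes differed in fold by -0.60 ± 0.39 (adjusted p = 0.427). Without scaling their folds were -0.75 and -0.15, against the shift of all probes given for Fos.

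With 1 array left out in turn, none of the 15 folds changed sign. For the 14 probes whose groups did not overlap this was fixed beforehand, so only Fosb could have turned. The 4 genes with several probes gave 6 pairs, and 0 of them differed in fold after adjustment. Across the array 0 of 10556 pairs of 5915 genes passed in limma (0%), with 2378 at an unadjusted p under 0.05, of which Junb was the only member pair. Calls in opposite directions were made for 130 pairs (1.23%) from 107 genes, and for 0 member pairs. The Zfp36 probes lay 3.95 and 3.33 log2 units apart in the FLAG IP, against 4.55 and 3.93 in the input. The Ier2 probes lay 5.23 and 5.77 apart in the FLAG IP, against 6.02 and 5.81 in the input.

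Other genes of the early response were tested in the same fit. Among 29 other immediate early genes, 13 of 36 probes were higher and 8 lower, with a median of 0.60 (-1.89 without scaling). Ier3 (2.69 ± 0.27, adjusted p = 0.00716) and Egr2 (2.65 ± 0.36, adjusted p = 0.0107) had the highest folds. Klf2 had the lowest, at -2.36 ± 0.38 (adjusted p = 0.0149) on probe A_52_P442031. The other Klf2 probe stood at 0.42 and was not called, so its probes went apart as well. The 2 Ier5l probes stood at -0.07, not called, and -1.08, lower, and Ier5 at -0.38, not called. Myc, a growth factor target, fell by 1.81 and 1.84 on 2 probes and was called lower at -1.91 on the third, a dim probe that was not well above background on FLAG IP replicate 1. Of the AP-1 paralogues, Jund stood at -0.32 and was not called, and the 2 Fosl2 probes were at 0.62, not called, and -0.97, lower. Egr4 stood at -0.19 and was not called.

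The kinases and factors that act upstream gave 14 of 45 probes higher and 5 lower, with a median of 0.37 (-2.11 without scaling). Rps6ka5, the kinase that phosphorylates CREB and histones at these genes, rose by 2.76 ± 0.25, and Elk3, a ternary complex factor, fell by 1.83 on both of its probes. Mapk8, the gene of the Jun kinase JNK1, had probes called both ways, at 2.27 and 1.57 higher and at -1.33 lower. The probes at 1.57 and -1.33 were well above background on only 1 of the 2 FLAG IP arrays. Another tested Mapk8 probe stood at 0.42 and was not called. Among bZIP genes that can pair with AP-1 proteins, 11 of 24 probes were higher and 6 lower, with a median of 0.46 (-2.03 without scaling). This list shares a gene with the upstream list. All tested probes of that gene were called higher and count in both lists, so the 2 counts are not separate. Nfe2l2 rose by 2.43 and 1.24 on 2 of its 3 probes, and Cebpb fell by 2.13 and 1.29. The Nfe2l2 probe at 2.43 was dim, and only 1 FLAG IP array was well above background for it.

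The families of Dusp1, Btg2 and Zfp36 held probes called both ways or one way only. Of 11 probes for the other dual specificity phosphatases, which remove phosphate from MAP kinases, 1 was higher and 2 were lower. Dusp2 rose by 2.28 ± 0.20, Dusp4 fell on 1 of 2 probes by 1.57, and Dusp6 stood at 0.02, not called. The other BTG and TOB genes gave 3 of 6 probes higher and 0 lower, with Tob2 at 1.34 and 0.81 and Btg3 at 1.21. Tob1, at 0.79, and Btg1, at 0.32 and -0.08, were not called. The only Btg2 probe called, on the lower side, was the dim A_52_P35217. As the mean of all its probes, that one included, Btg2 was called lower at -0.80 ± 0.16 (adjusted p = 0.0242, limma). The AU-rich element binding genes gave 1 of 20 probes higher and 8 lower, with a median of -0.55. Zfp36l2, a paralogue of Zfp36, was called lower at -0.83, but on FLAG IP replicate 1 it was not well above background, and its input values, -3.62 and -3.77, were under the -2.77 given for that array. Both Zfp36l1 probes were not called, at -0.41 and -0.63. Elavl1, which stabilises such mRNAs, had 1 probe higher at 1.40 and the other tested probes not called at -0.03 and -0.44. The differences between a member and its family were not tested, and the lists' counts are read beside 23.2% higher and 22.5% lower over all probes.

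Set beside the scanner values, the ratios in the authors' deposited table kept the side of each member. These ratios come from the same arrays and are not an independent measurement. Their median over all probes was 1.53, and each member also kept its side of that value. The authors' deposited table gives ratios of FLAG IP to input of 10.3 for Dusp1, 4.43 for Fos, 2.38 for Egr1, and 3.06 and 4.64 for the Zfp36 probes. For Junb the authors' deposited table gives 2.98 and 0.477, and for Ier2 0.231 and 0.308, on the probes in the order named before.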

How the data were processed

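The samples were FLAG IP and input RNA of embryonic day 14.5 male gonads, with 2 one-colour arrays per group. Per the labels' protocols, amplification and Cy3 labelling started from 0.20 µg of RNA. Spots were read in Agilent Feature Extraction 9.5 (submitters' processing notes). The scanner files deposited by the authors give a background-corrected intensity for every spot, on a linear scale, beside its local background and marks for outliers, saturation and signal well above background. For each probe the authors' series table holds a p-value, a ratio and 1 raw signal for either group. That raw signal lay within 1% of the mean of a group's processed signals for 99.9% (input) and 99.8% (FLAG IP) of probes, so the authors' values are pooled. No deposited p-value was used. Per-sample columns left unused numbered 0.

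Deposited intensities were put on the log2 scale and centred on the 75th percentile of their array. Outlier spots (52 to 104 per array) were dropped, no spot was saturated, and repeated spots of a probe were averaged. Tested probes were those well above background on both FLAG IP or both input arrays. The groups were compared with limma 3.58.1 in R 4.3.3 (lmFit, eBayes, two-sided, without a block), with 2 residual and 1.87 prior degrees of freedom and Benjamini-Hochberg adjustment at 0.05. Differences between probes of one gene were fitted over all such pairs. The steps were tested on simulated data. The number of arrays limits the precision. Probes were named by the table's symbols, and list genes through the gene ID in RefSeq (31004 of 41174 probes).

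The members, gene lists and tests were chosen with earlier results of these data known. Every member probe is named. From other lists only member families, Nanos2, marker genes and at most the 2 highest and 2 lowest called genes could be named. Slide 1 held input replicate 1 alone and slide 2 the other arrays, so the slide comparison is that without input replicate 1. Alternatives were other scalings, normexp, filters, outliers kept, trend and robust eBayes, replicate and slide blocks, gene means, the deposited ratio and each array left out.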

Additional observations from a re-analysis of the deposited data

How the results depend on the processing

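The fit had 4 arrays and 2 residual degrees of freedom. No scaling, normexp, no filter on dim probes and the slide as a fixed block each gave 0 higher and 0 lower calls in limma over all probes and over the 15 immediate early probes. At an unadjusted p under 0.05 these settings had 0 and 7068, 4748 and 3509, 7638 and 5894, and 3544 and 3919 probes higher and lower over the array. Leaving out 1 array gave 0 to 11227 higher and 0 to 10847 lower probes over the array, and 0 to 6 higher and 0 to 8 lower immediate early probes. Pairs of probes that differed in fold numbered 0 to 7101 over the array and 0 to 4 of the 6 pairs of these genes, and 359 over the array with only probes well above background on all 4 arrays. The causes were not tested.

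Without scaling, where the median of all probes fell by 2.47, the folds turned to -0.27 (Fos), -0.79 (Junb A_51_P159194), -1.12 (Egr1), -0.75 and -0.15 (Zfp36). Under normexp, run on the median signal and background since the files hold no mean signal, the median rose to 0.60 and the folds turned to 1.08 (Fosb), 0.41 (Atf3), 0.80 (Ier2 A_52_P554555), 0.91 and 0.49 (Btg2 A_52_P35217 and A_52_P925197). Relative to each setting's median, 12 of 15 probes kept their sign under normexp and all tested ones in the other settings, gene means and the deposited ratio not included. Median centring and no scaling shift all folds alike, and trend and robust eBayes and the replicate block keep them. The signs under those settings were thus fixed beforehand. The mean over a gene's probes turned Junb A_51_P159201 to 0.37 and gave 4469 higher and 4414 lower genes. Same-numbered arrays had deviations from their group means that correlated at 0.0525 across probes. The labels do not say whether a number marks a shared pool or day, and this correlation cannot settle it. With the replicate block, 4940 probes were higher and 5184 lower, and 5 and 3 of the immediate early probes. It changed 2 of their calls, Junb A_51_P159201 (lost, -0.95) and Ier2 A_52_P554555 (gained, -1.58). The slide as a random block was not run, because its correlation could not be estimated with 1 array on slide 1. Signal over background limits FLAG IP replicate 1, where 42.7% of spots were well above background.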
